A study of Mus musculus with 2 samples.

Results

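The genes described here are the 4 DNA-binding TCF/LEF factors (Tcf7, Tcf7l1, Tcf7l2 and Lef1), the 4 full-length Groucho corepressors (Tle1, Tle2, Tle3 and Tle4) and Ctnnb1, which encodes beta-catenin. They were chosen by name, as 9 of the 42392 gene IDs in the deposited table, and each symbol stood on 1 gene ID. The series holds RNA-seq of hair follicle stem cells from the skin of female mice, 1 sample in anagen II-III, the early growth phase of the follicle, and 1 in telogen, its resting phase. Both samples, titled controls, carried the genotype K15-CrePGR; Shh+/- and had received RU486 for 8 days. K15-CrePGR is a Cre recombinase fused to the progesterone receptor under a keratin 15 promoter, RU486 is the ligand that activates it, and Shh+/- leaves 1 functional copy of the Sonic hedgehog gene in anagen and telogen samples alike. The labels give neither the age of the mice nor how many mice a sample holds. Only the anagen library was analysed here, through the table's column whose name carries the number of that sample's title. With 1 library and no replicate, no value has an error and no test between stages was possible. The values are TPM, a measure of transcript abundance scaled for transcript length and for the library's total, so levels of different genes can be set side by side. The read depth behind them is unknown, so neither an interval nor a detection floor could be given.

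TCF/LEF factors bind DNA through an HMG box and, when no Wnt signal is received, recruit Groucho proteins, which repress the bound genes together with histone deacetylases. When a Wnt signal stops the destruction complex from degrading beta-catenin, beta-catenin enters the nucleus, displaces Groucho and recruits coactivators to the same sites. In mouse skin, Tcf7l1 and Tcf7l2 are known as factors of the bulge stem cells that can repress Wnt target genes, while Lef1 is known from the hair germ, matrix and precortex, where new hair is made.

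The promoters are shown because they mark where the highest and the lowest TCF/LEF genes of this library, and beta-catenin, begin, and because several members have more than 1 annotated start, which a single gene-level TPM does not separate. RefSeq sequences on GRCm38.p6 were matched for all 9 members, at 16 annotated starts, each with 250 bases before the start and 50 from it on. Of the 9, 4 had 1 start, and Lef1 had the most, 4. Lower case is used throughout, and capitals mark the TCF/LEF core CTTTGA or its reverse complement TCAAAG. Lef1 is given at its first start and at its start 4, which lies inside the gene.
Tcf7l1, chr6:72788996-72789295, minus strand: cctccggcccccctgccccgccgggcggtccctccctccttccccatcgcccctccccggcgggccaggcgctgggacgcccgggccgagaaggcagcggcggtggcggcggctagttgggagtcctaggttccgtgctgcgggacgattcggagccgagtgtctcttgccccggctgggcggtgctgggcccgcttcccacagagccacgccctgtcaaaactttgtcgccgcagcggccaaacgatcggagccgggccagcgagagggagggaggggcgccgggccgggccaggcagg
Lef1 first start, chr3:131110047-131110346, plus strand: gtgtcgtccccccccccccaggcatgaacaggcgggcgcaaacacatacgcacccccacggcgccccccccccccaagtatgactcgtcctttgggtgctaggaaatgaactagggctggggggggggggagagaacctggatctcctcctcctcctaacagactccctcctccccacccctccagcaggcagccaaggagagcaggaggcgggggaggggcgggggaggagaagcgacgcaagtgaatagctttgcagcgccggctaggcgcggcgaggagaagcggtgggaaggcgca
Lef1 start 4, chr3:131156044-131156343, plus strand: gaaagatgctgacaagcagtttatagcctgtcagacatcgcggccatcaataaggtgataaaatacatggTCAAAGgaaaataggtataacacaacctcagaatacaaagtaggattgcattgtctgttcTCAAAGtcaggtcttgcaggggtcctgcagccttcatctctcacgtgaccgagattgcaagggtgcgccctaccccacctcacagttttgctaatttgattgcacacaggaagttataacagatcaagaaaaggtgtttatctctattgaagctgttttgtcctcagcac
Ctnnb1 first start, chr9:120933150-120933449, plus strand: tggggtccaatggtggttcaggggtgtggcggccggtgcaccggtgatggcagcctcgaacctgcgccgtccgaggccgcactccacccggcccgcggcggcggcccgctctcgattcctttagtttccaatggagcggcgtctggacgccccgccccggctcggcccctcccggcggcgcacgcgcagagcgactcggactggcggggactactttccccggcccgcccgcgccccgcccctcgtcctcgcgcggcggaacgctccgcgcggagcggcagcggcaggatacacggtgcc

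The core CTTTGA, searched on both strands, was found at 1 of the 16 member starts, start 4 of Lef1, where TCAAAG stood 180 and 120 bases before the start. Of all 32851 RefSeq promoter windows of this length, 16.0% held it. The first-start windows of Tcf7l1, Lef1 and Ctnnb1 printed above did not hold these exact letters. Sequences that differ in a letter were not counted, such as ctttgt in the printed Tcf7l1 window and at start 2 of Tcf7l2. The count therefore does not say which members hold a site that TCF/LEF factors can bind. The printed first-start windows were rich in G and C, with 75.3% in Tcf7l1, 67.3% in Lef1 and 75.3% in Ctnnb1. The median over all windows was 52.7%. Start 4 of Lef1 had 43.7%. Over the 16 starts, 13 lay above the median of all windows, and the lowest, at 42.0%, was the internal second start of Tcf7l2. The GC box GGGCGG, searched on both strands, was found at 13 of the 16 starts and 35.7% of all windows, with Tle3 the one member that had none. The letters TATAAA of the TATA box, searched anywhere in the window on both strands, were found at 4 starts and in 13.6% of all windows. The 4 were 1 each in Tcf7, Tcf7l2, Lef1 and Ctnnb1. Distance from the start was not considered, so the count does not say that these letters act as TATA boxes. Windows of neighbouring starts overlap in Lef1 and in Ctnnb1, so the 16 are not independent. Which start was used in these cells was not measured, and the files' annotation may differ from RefSeq.

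All 9 members were expressed in the anagen library, and their levels covered a 73.1-fold range, set by Ctnnb1 at the top and Lef1 at the bottom. Each reached 1 TPM, the level from which a gene is called expressed here, as did 55.9% of the 20843 nuclear protein-coding genes in the table and 34.1% of all gene IDs, and 8 of the 9 reached 5 TPM, against 42.4% of those genes. Their median was 19.5 TPM, above 63.8% of the 11655 protein-coding genes at 1 TPM or more, whose own median was 12.5 TPM. Of the 9, 5 lay above that median and 4 below it. Ordered from high to low, the members were Ctnnb1, Tle3, Tcf7l1, Tcf7l2, Tle2, Tle4, Tle1, Tcf7 and Lef1. Without replicates it could not be tested which neighbours in this order differ, and the closest were Tcf7l2 and Tle2.

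**Figure D1:**
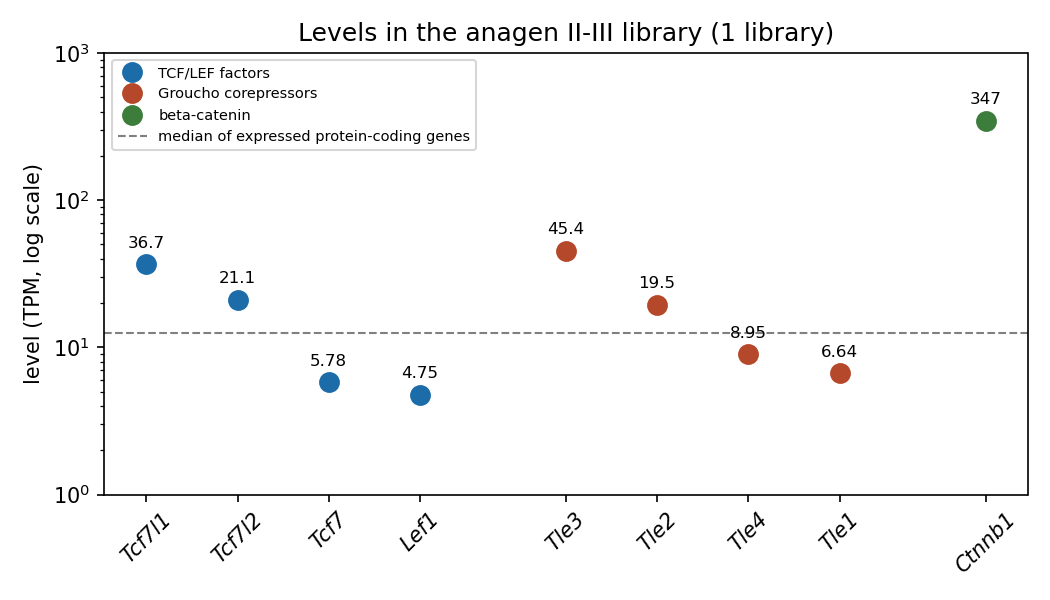
Level of each member in the 1 anagen II-III library, in TPM on a log axis, grouped by role and ordered by level within a role, with the value above each point. The dashed line is the median of protein-coding genes at 1 TPM or more, 12.5 TPM. Tcf7l1, Tcf7l2, Tle3, Tle2 and Ctnnb1 lie above it, and Tcf7, Lef1, Tle4 and Tle1 below.

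Among the DNA-binding factors, the factors known from the bulge held most of the RNA. Tcf7l1 (ENSMUSG00000055799, chromosome 6, 72626371 to 72789045 on GRCm38.p6), known as a repressor in stem cells, stood at 36.7 TPM, above 79.7% of expressed protein-coding genes. Tcf7l2 (ENSMUSG00000024985, chromosome 19, 55741797 to 55933659), its close relative, stood at 21.1 TPM, above 65.9% of them. Tcf7l1 was thus 1.74-fold above Tcf7l2. Tcf7 (ENSMUSG00000000782, chromosome 11, 52246527 to 52283383), which encodes TCF1, best known from T cells, stood at 5.78 TPM. Lef1 (ENSMUSG00000027985, chromosome 3, 131110297 to 131224357) was lowest at 4.75 TPM, above 23.1% of expressed protein-coding genes. The places of these low genes depend on the genes they are set against. Lef1 stood above 57.0% and Tcf7 above 59.4% of all protein-coding genes in the table, while among those at 5 TPM or more Tcf7 stood above 4.17% and Lef1 was under that level. Tcf7l1 was 6.35-fold above Tcf7 and 7.72-fold above Lef1, while Tcf7 and Lef1 were 1.22-fold apart. The 4 factors summed to 68.3 TPM, of which Tcf7l1 held 53.7%, Tcf7l2 30.9%, Tcf7 8.46% and Lef1 6.96%. Tcf7l1 and Tcf7l2 together therefore made up 84.6% of the TCF/LEF transcripts, 5.49-fold the sum of Tcf7 and Lef1.

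Both Tcf7 and Lef1 are known to give rise to shorter proteins that lack the beta-catenin binding end, and a gene-level TPM pools these with the full-length forms. Tcf7 also shares 332 bases with Skp1, a ubiquitin ligase gene at 206 TPM. As the sources used here do not say whether reads were assigned by strand, the part of the Tcf7 value that comes from this stretch was not tested. Tcf7l1 overlaps 3 long noncoding RNA genes and a pseudogene, of which Gm15401 has a value in the table, 0.804 TPM. Tcf7l2, Tle4 and Ctnnb1 each overlap 1 noncoding RNA gene, and Lef1, Tle1 and Tle3 overlap no other gene in RefSeq.

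Among the Groucho corepressors, 1 gene also held over 50% of the RNA. Tle3 (ENSMUSG00000032280, chromosome 9, 61372326 to 61418497) stood at 45.4 TPM, above 84.0% of expressed protein-coding genes. Tle2 (ENSMUSG00000034771, chromosome 10, 81574739 to 81592581) stood at 19.5 TPM, Tle4 (ENSMUSG00000024642, chromosome 19, 14448072 to 14598183) at 8.95 TPM and Tle1 (ENSMUSG00000008305, chromosome 4, 72109945 to 72200989) at 6.64 TPM. Tle3 was 2.32-fold above Tle2, 5.08-fold above Tle4 and 6.84-fold above Tle1. Of a Groucho sum of 80.6 TPM, Tle3 held 56.4%, Tle2 24.3%, Tle4 11.1% and Tle1 8.25%, so Tle3 and Tle2 together held 80.6%. The corepressor sum was 1.18-fold the TCF/LEF sum. Tle2 shares 1678 bases with its neighbour Tle6, which stood at 8.46 TPM.

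A shorter relative of the Groucho genes was more abundant than all 4 of them. Tle5, also called Aes, encodes a protein that lacks the WD repeats of the full-length Groucho proteins. It stood at 148 TPM, 3.25-fold above Tle3 and 1.83-fold the sum of Tle1 to Tle4. The remaining relatives were lower, with Tle6 as given above and Tle7 listed at 0.

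Beta-catenin RNA was far above that of the factors it binds. Ctnnb1 (ENSMUSG00000006932, chromosome 9, 120933400 to 120960507) stood at 347 TPM, rank 183 among the 11655 expressed protein-coding genes and 27.8-fold above their median. This was 9.46-fold the level of Tcf7l1, 7.64-fold that of Tle3 and 5.08-fold the summed level of the 4 TCF/LEF factors. Beta-catenin also holds cadherins to the cytoskeleton at cell junctions, and RNA levels do not say how much protein is at junctions or in the nucleus.

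**Figure D2:**
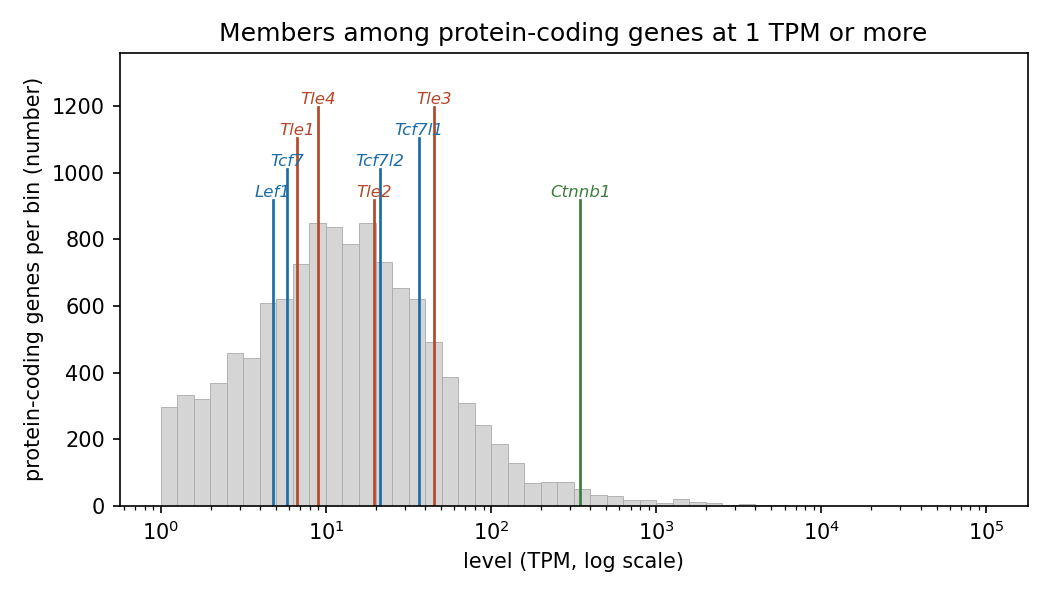
Number of protein-coding genes in each bin of level (TPM, log axis) in the anagen II-III library, for the 11655 genes at 1 TPM or more, with a vertical line at the level of each member (blue TCF/LEF, red Groucho, green beta-catenin). Line heights only separate the labels. The TCF/LEF and Groucho genes lie between 4.75 and 45.4 TPM in the body of the distribution, and Ctnnb1 lies in its upper tail at 347 TPM.

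Genes of the cadherin and catenin junctions in which beta-catenin takes part were also high. All 5 listed genes lay above the median of expressed protein-coding genes, with a median of 99.7 TPM. Jup, which encodes plakoglobin, the closest relative of beta-catenin, stood at 201 TPM, so Ctnnb1 was 1.73-fold above it. Ctnna1, which encodes alpha-catenin, stood at 107 TPM, and the P-cadherin gene Cdh3 at 99.7 TPM. The E-cadherin gene Cdh1 stood at 77.6 TPM and the p120-catenin gene Ctnnd1 at 67.2 TPM. The cadherin genes Cdh1 and Cdh3 together reached 0.511 times the level of Ctnnb1.

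Genes of the destruction complex, which marks beta-catenin for degradation, ranged widely. The list also counts Tnks and Tnks2, which act on axin and are not parts of the complex. Of 12 listed, 11 reached 1 TPM, against 55.9% of all nuclear protein-coding genes, and 6 lay above 12.5 TPM. The median of the list was 10.5 TPM. The priming kinase gene Csnk1a1 was highest at 148 TPM, and the kinase genes Gsk3a and Gsk3b stood at 37.4 and 13.8 TPM. Tnks2, whose product tags axin for breakdown, stood at 52.7 TPM. The scaffold genes Axin1 and Apc stood at 21.3 and 7.16 TPM, and Axin2, a scaffold that is itself induced by beta-catenin, at 5.48 TPM. Of the ubiquitin ligase adaptors, Fbxw11 stood at 28.1 TPM and Btrc at 2.62 TPM. Apc2 was the one gene of the list under 1 TPM, at 0.285 TPM.

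Genes for the nuclear coactivators of beta-catenin were all expressed, and most of those for its nuclear inhibitors. Each of the 10 coactivator genes stood at 1 TPM or more, against 55.9% of all nuclear protein-coding genes. The median of the 10 was 10.8 TPM. The adaptor pairs were uneven, with Bcl9l at 31.0 TPM against Bcl9 at 6.83 TPM, and Pygo2 at 32.6 TPM against Pygo1, the lowest of the list, at 2.02 TPM. Of 7 genes for inhibitors of nuclear beta-catenin, 6 reached 1 TPM. Ctbp1 and Ctbp2, corepressors, stood at 72.2 and 44.3 TPM, and Ctnnbip1, whose product ICAT blocks the binding of beta-catenin to TCF, at 25.5 TPM, so Ctnnb1 was 13.6-fold above it. Cby1, which exports beta-catenin from the nucleus, stood at 18.3 TPM, the chromatin remodeller gene Chd8 at 17.3 TPM, Hic1 at 1.05 TPM and Sox17 at 0.362 TPM.

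Genes that act with Groucho were uneven. The histone deacetylase genes Hdac2, Hdac3 and Hdac1 stood at 72.2, 39.9 and 34.2 TPM, all above the median of expressed protein-coding genes. Of 12 DNA-binding partners that recruit Groucho, 7 reached 1 TPM, a share near the 55.9% of all nuclear protein-coding genes. Hes1, a Notch effector, was highest at 59.3 TPM, followed by Hes6 at 38.3 TPM and Runx1, a factor of hair follicle stem cells, at 13.6 TPM. Msx2 and Msx1 stood at 8.39 and 8.36 TPM, Runx2 at 2.57 TPM and Hey1 at 1.95 TPM. Hes5, Runx3 and Hhex were under 1 TPM, at 0.453, 0.309 and 0.235 TPM, and Foxa1 and Pax5 were listed at 0. The kinase genes that act on TCF/LEF factors were Map3k7 at 16.8 TPM, Tnik at 11.5 TPM, Hipk2 at 4.99 TPM and Nlk at 4.37 TPM.

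**Figure D3:**
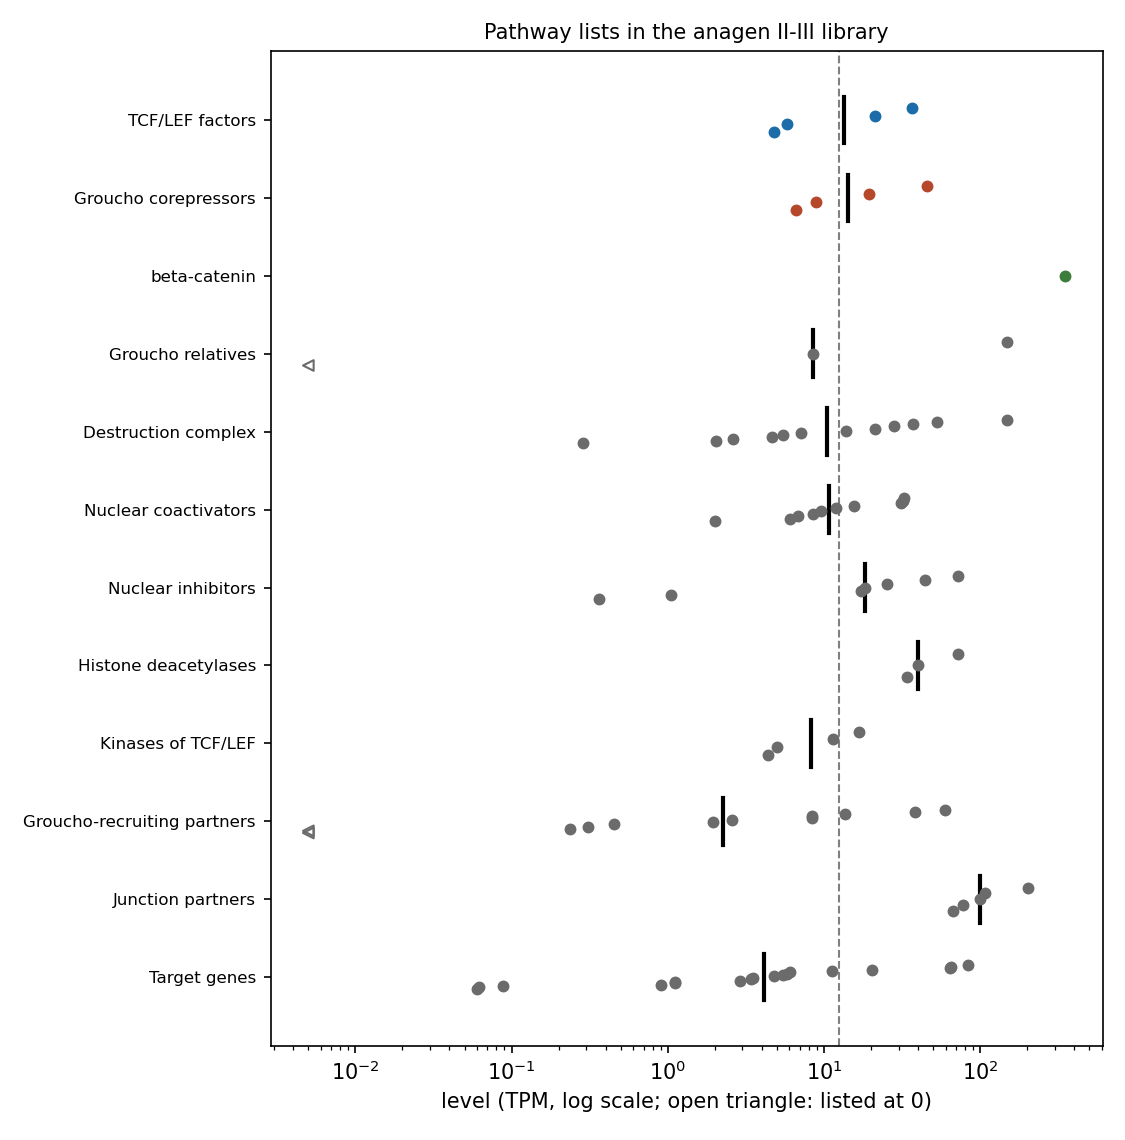
Level of each gene (points, TPM on a log axis) in the 1 anagen II-III library, by list, with the members at the top. Black bars are list medians, the dashed line is the median of expressed protein-coding genes, 12.5 TPM, and open triangles are genes listed at 0. Ctnnb1 at 347 TPM and Jup at 201 TPM lie farthest right, and the target genes spread from 0.0598 to 83.4 TPM.

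Genes known as targets of beta-catenin and TCF did not stand at a common level. Their median was 4.12 TPM, and 4 of the 18 listed lay above 12.5 TPM. At 1 TPM or more were 14 of the 18, against 55.9% of all nuclear protein-coding genes. At the top stood the cyclin gene Ccnd1 at 83.4 TPM, the adhesion receptor gene Cd44 at 64.7 TPM, the stem cell receptor gene Lgr5 at 63.9 TPM and Myc at 20.4 TPM. Axin2, often read as a general reporter of the pathway, was 11.7-fold below Lgr5. It was close to the members that are themselves targets, Tcf7 at 5.78 TPM and Lef1 at 4.75 TPM. The ubiquitin ligase genes Rnf43 and Znrf3, which remove Wnt receptors, stood at 6.10 and 3.49 TPM, and the inhibitors Notum and Nkd1 each at 1.12 TPM. The 4 under 1 TPM were the transcription factor genes Ascl2 and Sp5, at 0.901 and 0.0880 TPM, and the Wnt antagonist genes Dkk4 and Dkk1, at 0.0618 and 0.0598 TPM. Many of these genes are also controlled by other pathways, and these levels do not show whether beta-catenin was active.

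The sorted population carried markers of bulge stem cells, and markers of other cells that use the same factors were present at mixed levels. Per the labels' protocols, cells were gated on high integrin alpha 6 and on CD34, without SCA1, CD140a, CD117, CD31 or CD45. All 9 bulge stem cell markers lay between 16.1 and 3364 TPM, with Krt15 highest and Nfatc1 lowest, and their median was 132 TPM. Lef1 is also a gene of the hair matrix and precortex, and all 7 matrix and hair shaft markers with a value in the table reached 1 TPM, from Krt33a at 4.04 TPM to Hoxc13 at 40.0 TPM. They summed to 128 TPM. For comparison with the marker counts, 55.9% of all nuclear protein-coding genes reached 1 TPM. Lef1 is expressed in the dermal papilla too, and 8 of 10 dermal papilla and fibroblast markers reached 1 TPM and summed, over all 10, to 902 TPM. That sum was carried by Col3a1, Col1a1 and Col1a2, at 287, 278 and 237 TPM. The fibroblast genes Dcn and Lum stood at 63.9 and 11.8 TPM, and the dermal papilla genes Vcan and Crabp1 at 11.2 and 10.1 TPM. Pdgfra, the gene of the excluded CD140a, stood at 1.44 TPM, and the dermal papilla genes Corin and Alx4 at 0.695 and 0.688 TPM. Tcf7 and Lef1 are T cell genes as well, and 4 of 12 T cell and innate lymphoid markers reached 1 TPM, with a sum of 119 TPM. Most of that sum was Thy1 at 61.1 TPM, a gene also expressed outside lymphocytes, and Trbc2 at 50.4 TPM, followed by Lck at 3.18 TPM and Trbc1 at 3.09 TPM. The defining genes Cd3g, Cd3e, Ptprc and Cd3d were at 0.800, 0.343, 0.264 and 0.0910 TPM, and Cd8a and Trac were listed at 0. Melanocyte markers reached 1 TPM in 7 of 8 genes and summed to 49.3 TPM, with Kit, the gene of the excluded CD117, at 1.17 TPM. Endothelial markers did so in 3 of 5 and summed to 9.35 TPM, with Pecam1, the gene of the excluded CD31, at 2.01 TPM. Suprabasal markers did so in 5 of 6 and summed to 955 TPM. Krtdap led the suprabasal markers at 769 TPM, followed by Krt10 at 138 TPM and Krt1 at 33.0 TPM. Ivl and Lor stood at 7.58 and 6.77 TPM, and Flg at 0.00794 TPM. The part of any other cell type in the levels of Lef1 and Tcf7 was not tested. In a bulk library, fewer cells that express a gene and less RNA per cell cannot be told apart.

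**Figure D4:**
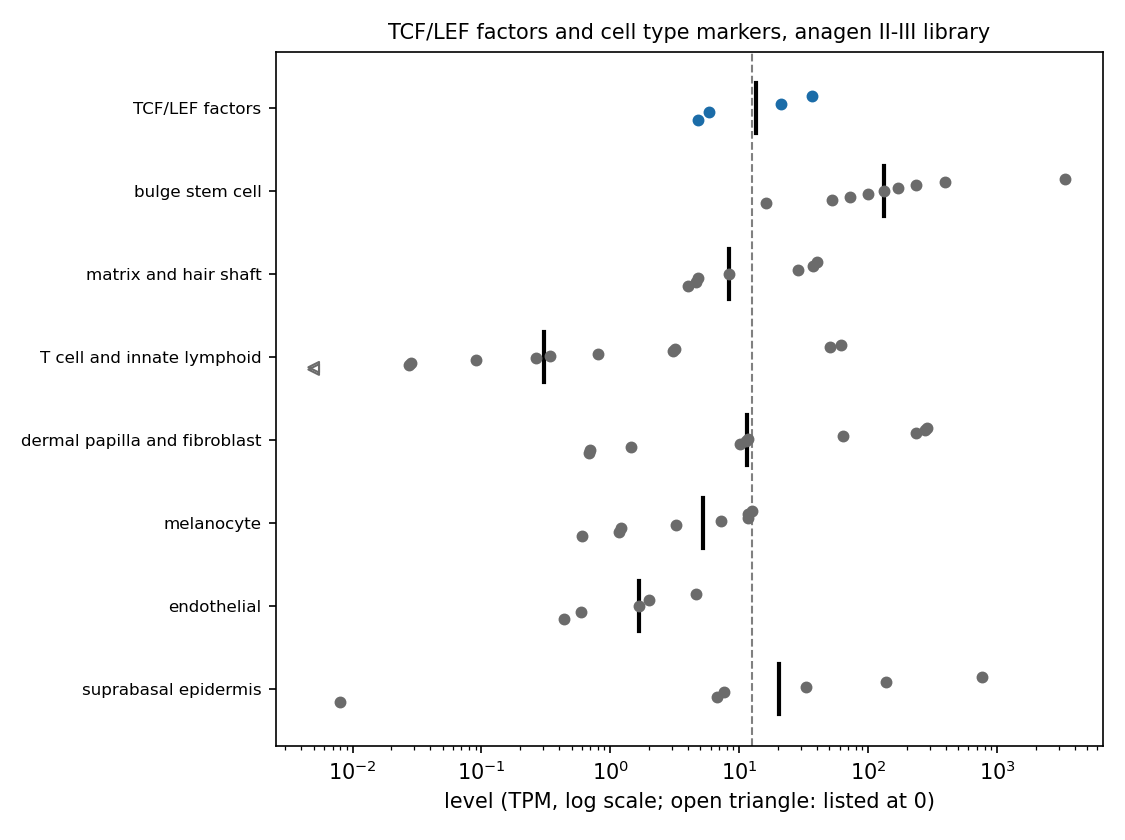
Level of the TCF/LEF factors and of each cell type marker (points, TPM on a log axis) in the 1 anagen II-III library, with list medians as black bars, the median of expressed protein-coding genes as a dashed line and open triangles for genes listed at 0. The bulge markers have the highest median, 132 TPM, and the T cell and innate lymphoid markers the lowest, 0.304 TPM.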

How the data were processed

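TPM values per gene were deposited by the authors, per the file headers. Bowtie2 2.2.9, RSEM 1.2.30 and mm10 (GRCm38) are named in the submitters' processing notes. Which annotation, filters and strand setting were applied is not given in the sources used here. Of 12 columns of per-sample values, 11 were not used, since no label ties them to the telogen sample alone. The 42661 rows hold 42392 gene IDs, which sum to 1000000 TPM. Genes of the mitochondrial genome held 18.8% of it and the 50 highest gene IDs 41.6%, which lowers every other value. Symbols missing for 13933 IDs came from a gene name table that matched 41523 IDs, and a symbol on several IDs took the highest value. Gene types, positions and promoters came from RefSeq on GRCm38.p6, matched by symbol. Percentiles are shares of nuclear protein-coding genes at 1 TPM or more with a lower value. The percentile step was checked on numbers of known rank, and the rescaling step was not tested. The members and lists were chosen with earlier results of these data known. All 9 members were named and all genes of pathway lists of up to 8, and from longer lists the highest, the lowest and others that say which reach 1 TPM. Beside the 12 partners counted as recruiting Groucho, 1 further gene first listed with them is not reported here. Marker lists are given by counts, sums and chosen genes. Further genes of longer lists were named after their values were seen, for their role. Python 3.11.15, pandas 2.3.3, numpy 2.4.6 and matplotlib 3.10.9 were used.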

Additional observations from a re-analysis of the deposited data

How the results depend on the processing

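The order of the members and the share of each within its family do not depend on a rescaling of the library, which multiplies every kept value by 1 factor. That factor was 1.23 without genes of the mitochondrial genome, 1.71 without the 50 highest genes and 2.09 over protein-coding genes alone. The median of the 9 members was then 24.1, 33.4 and 40.9 TPM, and its position was above 64.5%, 65.7% and 66.2% of protein-coding genes at 1 TPM or more. It was above 79.8% of all protein-coding genes and 52.2% of those at 5 TPM or more. With Tle5, Tle6 and Tle7 in the Groucho sum, the highest share, then that of Tle5, was 62.4% and the ratio to the TCF/LEF sum 3.47. That ratio was 1.06 from medians. Over log2(TPM + 1) values, Tcf7l1 held 34.9% of the TCF/LEF sum and Tle3 34.3% of the Groucho sum. Ctnnb1 stood 9.46-fold above the highest TCF/LEF factor alone. Summing IDs of a symbol changed none of these values, and 9 members reached 1 TPM under each rescaling. No paired analysis was possible because 1 library was analysed. The unknown depth limits every value, most of all those under 1 TPM.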
